A study of Mus musculus with 18 samples.

Results

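Genes of cholesterol synthesis and efflux were followed in mouse bone marrow-derived macrophages (BMDMs) through a first exposure to LPS, priming, re-exposure and carboplatin treatment. The set held 33 of the 22852 gene symbols in the count files, chosen by name from the sterol pathway. It comprised 18 enzymes of sterol synthesis (7 of the mevalonate steps and 11 of the squalene and sterol steps), 5 SREBP factors or regulators (Srebf1, Srebf2, Scap, Insig1 and Insig2), the sterol carrier Stard4, the 2 LXR receptors Nr1h3 and Nr1h2, 5 efflux or LXR target genes (Abca1, Abcg1, Apoe, Mylip and Lpcat3) and the 2 stearoyl-CoA desaturases Scd1 and Scd2. All 33 passed the filter on low counts and were among the 11305 genes tested.

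The RNA-Seq libraries came from 18 samples, 3 biological replicates in each of 6 groups, of BMDMs grown from the marrow of female C57BL/6 mice in medium with serum and L929-conditioned medium. Unstimulated BMDMs received no LPS, and LPS-stimulated (10 ng/ml) BMDMs received that single dose and were harvested after 3 h, a time that the scheme gives and the labels do not. LPS-primed BMDMs received LPS at 100 ng/ml for 24 h. LPS-tolerant BMDMs received the same priming, after which their medium was replaced by fresh medium containing LPS at 10 ng/ml for 3 h. They thus also lost the priming LPS and, by the scheme, were harvested later than LPS-primed BMDMs. Neither can be told apart from the second dose. The last 2 groups were LPS-primed and LPS-tolerant BMDMs given carboplatin (a platinum drug that crosslinks DNA) at 25 µM, added 1 h before the LPS. Whether unstimulated, LPS-stimulated or LPS-primed BMDMs also received fresh medium is not stated in the sources used here, so that a renewed supply of serum and the second dose cannot be told apart in LPS-tolerant BMDMs. It is likewise not stated whether the replicates came from separate mice, and the p-values measure the spread between these samples.

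A cell obtains cholesterol by making it from acetyl-CoA, through mevalonate, squalene and lanosterol, and by taking up lipoproteins from serum. When sterol in the endoplasmic reticulum is low, the escort protein Scap carries the SREBP transcription factors to the Golgi, where they are cut and set free to switch on the synthesis enzymes, and when sterol is plentiful the Insig proteins hold Scap back. The LXR receptors do the opposite job: they bind oxysterols and switch on exporters such as Abca1 and Abcg1. Macrophages, which engulf whole cells and lipoproteins, depend on this export, and LPS is known to act on both arms of the balance.

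The samples held 6869667 to 14708099 counted read pairs (median 8986463). A member's level is given as a normalized count, that is, its count scaled to a common library size after TMM correction. The 8 macrophage markers of a fixed list had reads in every group, at summed levels of 116200 to 283600. The T cell markers Cd3e, Cd3g and Cd8a, the neutrophil markers Ly6g and Mpo and all 3 erythroid markers were at 0 in every sample. Lck, the remaining T cell marker, stood at 21.7 to 47.7 in LPS-stimulated (10 ng/ml) and at 0.909 to 14.4 in the other samples. The 3 dendritic cell markers summed to at most 11.8. The 5 markers of the neutrophil list summed to 7.27 to 12.4 in unstimulated and up to 537 in LPS-treated samples, and the 5 fibroblast markers to at most 75.2. The 4 B cell markers used summed to 267 to 1560 in unstimulated, 71.6 to 271 in LPS-stimulated (10 ng/ml) and 0.94 to 12.7 in the other samples, with Ms4a1 at 0 in every group except the 10 ng/ml LPS group and Cd79a at 0 in every group except unstimulated BMDMs and the group given 100 ng/ml LPS with carboplatin, and the part of these cell types in the comparisons was not tested. In bulk samples, fewer cells of a type and less RNA per cell cannot be told apart.

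Promoter sequences of 5 members are shown with their letter matches to classical control elements of the 2 arms, of which no window holds all. These elements are the sterol regulatory element (SRE) that SREBP binds, the CCAAT box bound by its partner NF-Y, and the DR4 element bound by LXR with its partner RXR. Each runs 5′ to 3′ toward the gene, from 250 bases before a RefSeq start site toward that site, and holds no annotated exon of its gene, with matches in capitals, where a CCAAT box on the opposite strand reads ATTGG. The motifs were searched on both strands as TCACNCCAC (SRE), CCAAT, and 2 copies of GGTNA with 5 bases between them (DR4, letters fixed after matches were seen). The RefSeq table was made on GRCm38.p6, and each window matched GRCm39 exactly once, at chr13:120151637-120151886 (+ strand) for Hmgcs1, chr1:169796814-169797024 (- strand) for Hsd17b7, chr9:42175606-42175846 (- strand) for Sc5d, chr4:53159901-53160145 (- strand) for Abca1 and chr11:60101298-60101547 (- strand) for the third RefSeq start site of Srebf1. The Srebf1 window lies inside the annotated gene (chr11:60089913-60113407), in an intron of transcripts that start further upstream.
Hmgcs1: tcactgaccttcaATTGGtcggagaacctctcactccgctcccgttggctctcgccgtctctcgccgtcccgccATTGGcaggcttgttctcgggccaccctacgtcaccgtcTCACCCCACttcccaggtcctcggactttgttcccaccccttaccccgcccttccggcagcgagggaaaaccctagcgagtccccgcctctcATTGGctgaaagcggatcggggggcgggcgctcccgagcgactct
Hsd17b7: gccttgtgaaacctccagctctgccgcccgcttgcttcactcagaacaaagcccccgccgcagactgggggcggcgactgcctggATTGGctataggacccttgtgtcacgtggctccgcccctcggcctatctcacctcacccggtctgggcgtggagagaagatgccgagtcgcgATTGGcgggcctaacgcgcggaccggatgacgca
Sc5d: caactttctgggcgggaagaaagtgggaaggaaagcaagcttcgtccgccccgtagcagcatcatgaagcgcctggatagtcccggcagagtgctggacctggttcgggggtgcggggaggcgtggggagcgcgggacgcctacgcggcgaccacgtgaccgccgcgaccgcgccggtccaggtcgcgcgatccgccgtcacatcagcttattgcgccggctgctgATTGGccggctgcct
Abca1: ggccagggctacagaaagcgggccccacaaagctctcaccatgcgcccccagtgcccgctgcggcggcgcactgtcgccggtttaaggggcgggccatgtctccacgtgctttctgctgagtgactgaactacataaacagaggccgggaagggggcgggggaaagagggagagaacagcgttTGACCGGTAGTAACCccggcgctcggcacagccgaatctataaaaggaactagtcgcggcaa
Srebf1: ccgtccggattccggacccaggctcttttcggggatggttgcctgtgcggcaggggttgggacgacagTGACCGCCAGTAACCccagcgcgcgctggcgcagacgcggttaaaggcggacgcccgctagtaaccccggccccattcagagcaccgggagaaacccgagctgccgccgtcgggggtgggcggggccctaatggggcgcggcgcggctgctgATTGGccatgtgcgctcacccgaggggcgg

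Hmgcs1 held the SRE letters 137 bases before its start site, with CCAAT boxes at 237, 176 and 45 bases before it, and Hsd17b7 and Sc5d held CCAAT boxes without these SRE letters. Abca1 and Srebf1 held the DR4 letters, 67 and 182 bases before the start site. Of the 18 synthesis enzymes, 15 had a promoter in the table. A gene was counted if any of its promoters held a match in the 300 bases from 250 before to 50 after the start. A CCAAT box was held by 14 of the 15, by 6 of the 11 other members with a promoter and by 41.1% of all 27025 genes. The SRE letters were in 1 of the 15 and in 1.44% of all genes. The DR4 letters were in none of the 15, in 2 of the 11 and in 0.818% of all genes. As the DR4 letters were fixed after matches were seen, their share is no test. A match of letters is a description and not a measured binding site.

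**Figure D1:**
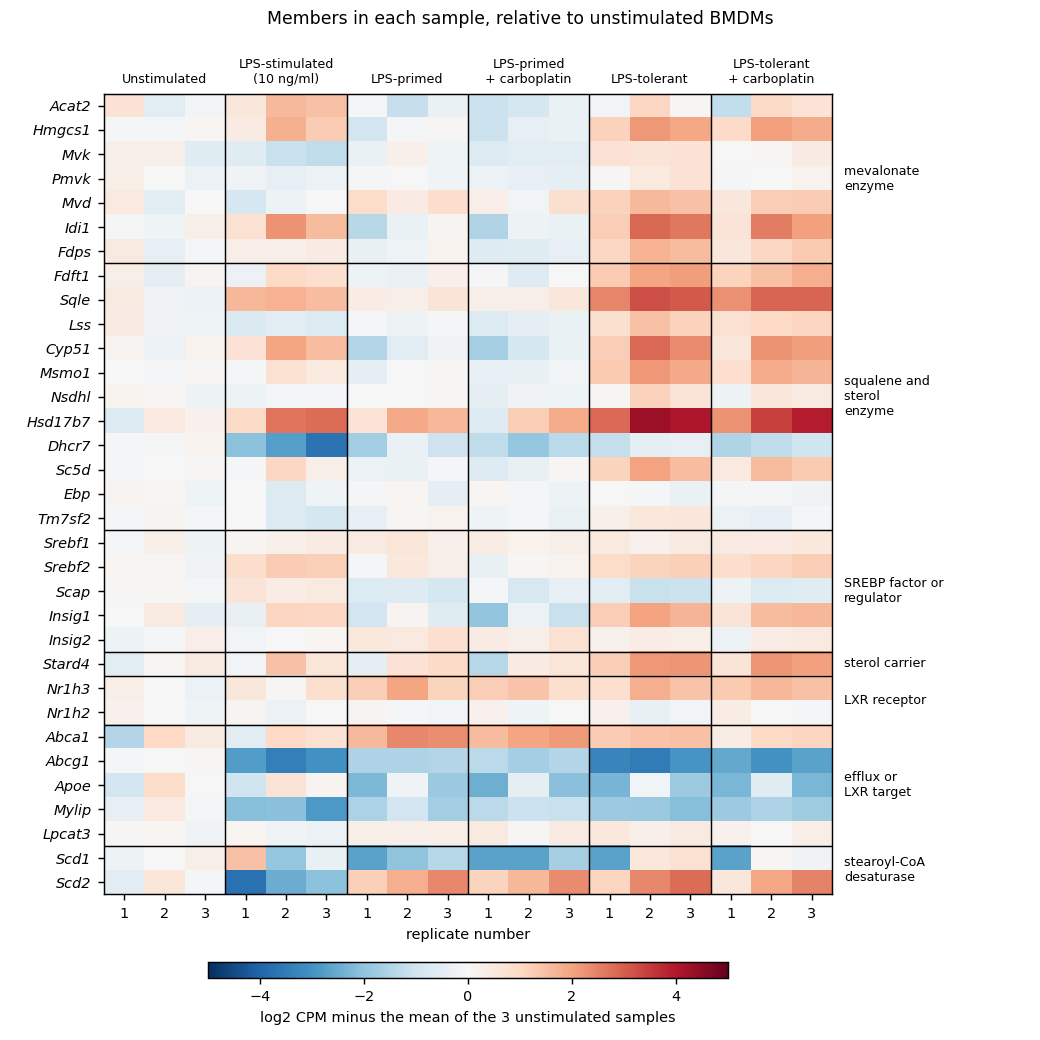
Heat map of the 33 members (vertical axis, grouped by role) in the 18 samples (horizontal axis, grouped by condition), with colour giving the log2 CPM of a sample minus the mean of that gene over the unstimulated samples. Most synthesis enzymes stand above their unstimulated mean in the LPS-tolerant groups, whereas Abcg1 and Mylip stand below it in all 15 LPS-treated samples.

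Per kilobase of messenger RNA, levels differed widely within the pathway. In unstimulated BMDMs, the mean normalized count per kilobase was highest among synthesis enzymes for Fdps (325 ± 97.2, SD, n = 3), followed by Msmo1 (217 ± 11.9) and Ebp (212 ± 27.6), and lowest for Hsd17b7 (3.15 ± 1.35). In LPS-tolerant BMDMs the order was led by Sqle (966 ± 254), Fdps (878 ± 215) and Msmo1 (779 ± 225), with spreads that overlapped. Apoe, the lipoprotein that macrophages secrete with cholesterol, exceeded every other member in each group by this measure, at 31440 ± 19270 in unstimulated and 12820 ± 10820 in LPS-tolerant BMDMs, although its values differed several-fold between replicates of a group.

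By its median log2FC, the synthesis arm moved most between LPS-primed and LPS-tolerant BMDMs, although more of its enzymes were called between LPS-stimulated and LPS-tolerant BMDMs (13 against 10 of 18). The comparison of LPS-tolerant with LPS-primed BMDMs covers the second LPS dose together with the change of medium and the later harvest. Of the 33 members, 12 rose and 1 fell in LPS-tolerant BMDMs (adjusted p under 0.05 by the quasi-likelihood test of edgeR, with adjustment after Benjamini and Hochberg), against 6.31% of all tested genes called, with 3.6% higher and 2.71% lower. With an absolute log2FC above 2 as a further limit, 6 members were called, against 0.681% of all genes. All 18 synthesis enzymes had a log2FC above 0, with a median of 1.46 against -0.01 over all tested genes, and 10 of them rose. The other members that rose were Insig1 and Srebf2, and the member that fell was Abcg1. With the replicate number as a block, 16 members rose and 1 fell, against 18% of all genes (9.67% higher and 8.32% lower), and Mvk, Pmvk, Nsdhl and Stard4 were added. Without all samples of replicate 1, 16 members were called, without those of replicate 2, 4, and without those of replicate 3, 2. The share of all genes called in these smaller fits is not given here, so these counts cannot be read as particular to the members.

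**Figure D2:**
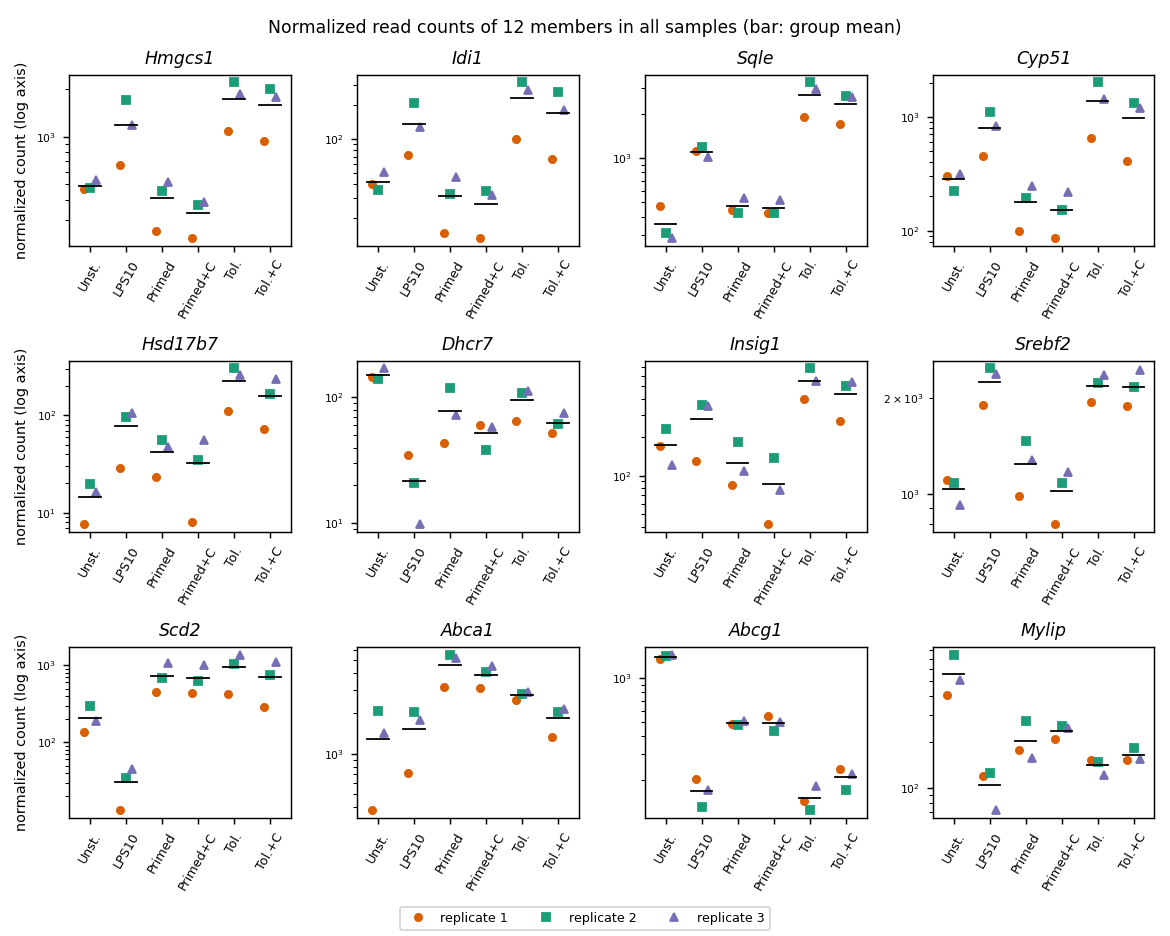
Normalized counts (vertical axes, log scale) of 12 members in each sample, by group (horizontal axes, with LPS10 for the single dose of 10 ng/ml, Tol. for LPS-tolerant and C for carboplatin), with a symbol for each replicate and a bar at the group mean. Cyp51 and Sqle lie higher in every LPS-tolerant sample than in any LPS-primed sample, and Abcg1 lies at 1360 to 1455 in unstimulated and at 124 to 182 in LPS-tolerant BMDMs.

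At the entry to the mevalonate steps, Hmgcs1 encodes the synthase that makes HMG-CoA. Its normalized counts were 466, 475 and 529.9 in unstimulated, 659.8, 1697 and 1188 in LPS-stimulated (10 ng/ml), 255, 452 and 517 in LPS-primed and 1083, 2207 and 1870 in LPS-tolerant BMDMs. Every LPS-tolerant sample lay above every LPS-primed one, and the gene rose 4.21-fold between them (log2FC 2.08 ± 0.37, adjusted p = 0.00257). Idi1, the isomerase that makes the active isoprene unit, was per kilobase the least abundant of the mevalonate enzymes in LPS-primed BMDMs. Its counts were 40.1, 35.2 and 50.9 in unstimulated, 72.8, 207 and 128 in LPS-stimulated (10 ng/ml), 14.8, 33.04 and 45.95 in LPS-primed and 100, 314 and 269 in LPS-tolerant BMDMs. The LPS-tolerant samples again lay above all LPS-primed ones (log2FC 2.86 ± 0.55, adjusted p = 0.00498), and replicate 1 was the lowest of its group in both.

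Fdps joins isoprene units to farnesyl diphosphate, the last product shared with the other isoprenoid pathways. Its counts were 562, 312 and 398 in unstimulated, 521, 504 and 542 in LPS-stimulated (10 ng/ml), 322, 352 and 469 in LPS-primed and 837, 1383 and 1221 in LPS-tolerant BMDMs. LPS-tolerant BMDMs exceeded the other 3 groups in every sample, and the rise from LPS-primed BMDMs was 3.01-fold (log2FC 1.59 ± 0.24, adjusted p = 0.000684). The remaining mevalonate enzymes passed the test in this comparison in no case. For Acat2, the thiolase that supplies acetoacetyl-CoA, counts were 125, 50.8 and 68.2 in unstimulated, 112, 236 and 212 in LPS-stimulated (10 ng/ml), 69.8, 33.04 and 59.1 in LPS-primed and 69.6, 156 and 79.3 in LPS-tolerant BMDMs, and the difference between LPS-tolerant and LPS-primed BMDMs did not pass the test (log2FC 0.92 ± 0.50, adjusted p = 0.312).

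The kinase Mvk had counts of 126, 126 and 65.4 in unstimulated, 65.6, 45.7 and 40.4 in LPS-stimulated (10 ng/ml), 79.4, 122 and 87.2 in LPS-primed and 167, 159.8 and 169.9 in LPS-tolerant BMDMs. Its 3 LPS-tolerant samples lay above all others without a call (log2FC 0.78 ± 0.26, adjusted p = 0.0816). The decarboxylase Mvd had counts of 214, 106 and 154 in unstimulated, 84.7, 127 and 155 in LPS-stimulated (10 ng/ml), 290, 202 and 282 in LPS-primed and 336, 472 and 424 in LPS-tolerant BMDMs, and each LPS-tolerant sample exceeded every LPS-primed sample (log2FC 0.67 ± 0.29, adjusted p = 0.199). Pmvk, the second kinase of the pathway, ranged from 124 to 147 in LPS-primed to 152 to 244 in LPS-tolerant BMDMs (log2FC 0.56 ± 0.20, adjusted p = 0.0994). These 3 genes therefore stood above 0 in log2FC without passing the threshold, while with the replicate block Mvk (log2FC 0.79, adjusted p = 0.0338) and Pmvk (log2FC 0.57, adjusted p = 0.0485) rose.

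Fdft1, squalene synthase, commits farnesyl diphosphate to sterols. Its counts were 334, 199 and 294 in unstimulated, 217, 538 and 486 in LPS-stimulated (10 ng/ml), 224, 212 and 318 in LPS-primed and 644, 1071 and 1146 in LPS-tolerant BMDMs, and it rose in LPS-tolerant compared with LPS-primed BMDMs (log2FC 1.92 ± 0.32, adjusted p = 0.00171). Sqle, the epoxidase that brings in oxygen, had the smallest adjusted p of all members in this comparison. Its counts were 475, 311 and 286 in unstimulated, 1110, 1182 and 1014 in LPS-stimulated (10 ng/ml), 447, 423 and 539 in LPS-primed and 1913, 3282 and 2935 in LPS-tolerant BMDMs, without overlap between any neighbouring groups apart from unstimulated and LPS-primed BMDMs, and the rise was 5.77-fold (log2FC 2.53 ± 0.23, adjusted p = 1.52e-05). Lss, which closes the ring to lanosterol, had counts of 167, 112 and 109 in unstimulated, 75.2, 85.1 and 77.9 in LPS-stimulated (10 ng/ml), 118, 107 and 121 in LPS-primed and 224, 356 and 287 in LPS-tolerant BMDMs. LPS-tolerant BMDMs were above all 9 other samples (log2FC 1.32 ± 0.20, adjusted p = 0.000866).

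Cyp51, the demethylase that acts on lanosterol, showed the largest log2FC of the enzymes. Its counts were 305, 225 and 315 in unstimulated, 456, 1093 and 823 in LPS-stimulated (10 ng/ml), 99.5, 194 and 247 in LPS-primed and 651, 2012 and 1437 in LPS-tolerant BMDMs, and the rise from LPS-primed BMDMs was 7.59-fold (log2FC 2.92 ± 0.50, adjusted p = 0.00196). Msmo1, the oxidase of the next demethylation, had counts of 572, 534 and 596 in unstimulated, 550, 976 and 794 in LPS-stimulated (10 ng/ml), 408, 559 and 592 in LPS-primed and 1412, 2577 and 2122 in LPS-tolerant BMDMs, with the LPS-tolerant samples above all others (log2FC 1.97 ± 0.27, adjusted p = 0.000338). Sc5d, which adds the ring double bond before the final reductions, had counts of 250.4, 253 and 269.9 in unstimulated, 246, 526 and 318 in LPS-stimulated (10 ng/ml), 211, 203 and 248 in LPS-primed and 561, 1042 and 764 in LPS-tolerant BMDMs. It also rose (log2FC 1.84 ± 0.30, adjusted p = 0.00149), with every LPS-tolerant sample above those of the other 3 groups.

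Hsd17b7, the ketoreductase of the sterol demethylation complex, was per kilobase the least abundant of the enzymes in unstimulated BMDMs. Its counts were 7.65, 19.7 and 16.4 in unstimulated, 28.6, 96.9 and 106 in LPS-stimulated (10 ng/ml), 23.3, 55.8 and 47.8 in LPS-primed and 110.2, 304 and 259 in LPS-tolerant BMDMs. Replicate 1 was the lowest sample in each of the 4 groups, and although the gene rose (log2FC 2.41 ± 0.60, adjusted p = 0.0229), the call was lost without LPS-primed replicate 1 or 2 or 3 or LPS-tolerant replicate 2 or 3 (adjusted p from 0.0525 to 0.0857). Dhcr7, the reductase that yields cholesterol itself, had counts of 144, 141 and 170 in unstimulated, 34.6, 20.8 and 9.86 in LPS-stimulated (10 ng/ml), 43.4, 119.6 and 72.2 in LPS-primed and 64.6, 109 and 113 in LPS-tolerant BMDMs. LPS-tolerant and LPS-primed samples overlapped (log2FC 0.29 ± 0.37, adjusted p = 0.718). The 3 enzymes Nsdhl, Ebp and Tm7sf2 had log2FC values of 0.67 ± 0.25, 0.02 ± 0.19 and 0.51 ± 0.26 and were not called, and with the block Nsdhl rose (log2FC 0.63, adjusted p = 0.0416).

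Among the regulators, Insig1, itself a target of SREBP that holds Scap in the endoplasmic reticulum, moved most. Its counts were 169, 232 and 122 in unstimulated, 130.1, 354 and 348 in LPS-stimulated (10 ng/ml), 84.7, 183 and 109 in LPS-primed and 396, 686 and 549.7 in LPS-tolerant BMDMs, and the LPS-tolerant samples stood above all others (log2FC 2.12 ± 0.44, adjusted p = 0.0082). Srebf2, the SREBP gene chiefly tied to cholesterol synthesis, had counts of 1102, 1078 and 922 in unstimulated, 1902, 2481 and 2386 in LPS-stimulated (10 ng/ml), 980, 1471 and 1275 in LPS-primed and 1944, 2228 and 2373 in LPS-tolerant BMDMs. It rose after the second dose (log2FC 0.81 ± 0.18, adjusted p = 0.0103), but not without LPS-primed replicate 1 or LPS-tolerant replicate 3 (adjusted p from 0.0512 to 0.0519). Stard4, a carrier that moves sterol between membranes, ranged from 35.98 to 101 in LPS-primed to 122 to 243 in LPS-tolerant BMDMs (log2FC 1.44 ± 0.53, adjusted p = 0.123), and it rose with the block (log2FC 1.48, adjusted p = 0.000441).

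Scap, the SREBP escort, differed in pattern from the enzymes. Its counts were 641, 638 and 569 in unstimulated, 952, 788 and 845 in LPS-stimulated (10 ng/ml), 387, 398 and 331 in LPS-primed and 430.5, 286 and 293 in LPS-tolerant BMDMs, with no difference past the threshold between LPS-tolerant and LPS-primed BMDMs (log2FC -0.15 ± 0.20, adjusted p = 0.735). Insig2, the second Insig gene, had counts of 104, 116 and 154 in unstimulated, 111, 124 and 132 in LPS-stimulated (10 ng/ml), 178, 174 and 223 in LPS-primed and 142, 158 and 149 in LPS-tolerant BMDMs and a log2FC of -0.36 ± 0.21 (95% interval -0.81 to 0.09). Srebf1, whose product drives fatty acid synthesis and is itself switched on by LXR, had counts of 678, 866 and 582 in unstimulated, 777, 836 and 925 in LPS-stimulated (10 ng/ml), 950.4, 1077 and 833 in LPS-primed and 988, 816 and 950.2 in LPS-tolerant BMDMs. The LPS-tolerant samples lay below the LPS-primed ones for Insig2 without a call, and overlapped them for Srebf1 (log2FC -0.05 ± 0.15, adjusted p = 0.886).

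Of the 5 efflux and LXR target genes, Abcg1 alone passed the test in the same comparison. Abcg1, which exports cholesterol to HDL, had counts of 1360, 1417 and 1455 in unstimulated, 204, 131 and 171 in LPS-stimulated (10 ng/ml), 482, 481 and 506 in LPS-primed and 143, 124 and 182 in LPS-tolerant BMDMs. LPS-tolerant samples lay below every LPS-primed sample, a 3.27-fold fall (log2FC -1.71 ± 0.18, adjusted p = 5.01e-05), and overlapped those given the single dose. Abca1, which loads cholesterol onto apolipoprotein A-I, had counts of 377, 2077 and 1430 in unstimulated, 712, 2064 and 1782 in LPS-stimulated (10 ng/ml), 3172, 5514 and 5249 in LPS-primed and 2508, 2812 and 2898 in LPS-tolerant BMDMs. All 3 LPS-tolerant samples lay below the LPS-primed samples, but the log2FC of -0.76 ± 0.44 did not pass the test (adjusted p = 0.354).

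Mylip encodes the ligase that marks lipoprotein receptors for breakdown. Its counts were 407, 748 and 514 in unstimulated, 120.5, 125 and 71.97 in LPS-stimulated (10 ng/ml), 178, 275 and 158 in LPS-primed and 153, 149 and 122 in LPS-tolerant BMDMs, with each LPS-tolerant sample below each LPS-primed one but no call (log2FC -0.52 ± 0.26, adjusted p = 0.254). Nr1h3, which encodes LXRα, had counts of 288, 236 and 193 in unstimulated, 346, 246 and 409 in LPS-stimulated (10 ng/ml), 561, 923 and 510.1 in LPS-primed and 419, 826 and 637 in LPS-tolerant BMDMs, and Nr1h2, which encodes LXRβ, had counts of 1154, 1007 and 879 in unstimulated, 1111, 825 and 1021 in LPS-stimulated (10 ng/ml), 1095, 950.2 and 913 in LPS-primed and 1183, 769.5 and 918 in LPS-tolerant BMDMs. Neither receptor gene passed the test between LPS-tolerant and LPS-primed BMDMs (log2FC -0.08 ± 0.27 and -0.04 ± 0.18), and the 95% interval for Nr1h2 was -0.43 to 0.34. Apoe and Lpcat3, the latter an enzyme that remodels phospholipids, had log2FC values of 0.04 ± 0.72 and 0.11 ± 0.15.

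Scd2, a desaturase that makes monounsaturated fatty acids for cholesterol esters and membranes, had counts of 135, 298 and 190 in unstimulated, 13.1, 33.9 and 45.4 in LPS-stimulated (10 ng/ml), 447, 692 and 1062 in LPS-primed and 422, 1056 and 1377 in LPS-tolerant BMDMs. It did not pass the test between LPS-tolerant and LPS-primed BMDMs (log2FC 0.38 ± 0.50, adjusted p = 0.732). Scd1, the other desaturase measured, had between 0 and 33.4 normalized counts per sample in all 18 samples, too few to give a fold change. The 2 genes are close in sequence, and how the authors' counting placed read pairs that match both is uncertain.

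Priming itself, the comparison of LPS-primed with unstimulated BMDMs, left the synthesis enzymes without a call, and the called LXR receptor and target genes went in both directions. Of the 33 members, 5 rose and 3 fell, against 25.2% of all tested genes called, with 12.1% higher and 13.1% lower. The members were thus called no more often than all genes were. None had an absolute log2FC above 2 as well, against 7.47% of all genes. None of the 18 synthesis enzymes passed edgeR's quasi-likelihood test. At an unadjusted p under 0.05 there were 3 of them, against 4053 of the 11305 tested genes. DESeq2 called 1 enzyme higher and 1 lower, and limma-voom 1 lower. The median log2FC of the 18 enzymes was -0.14 against -0.02 over all genes. Under library size alone, 3 members rose and 4 fell, with the median of all genes at -0.26, and the calls of Insig2 and Srebf1 were lost. With the replicate number as a block, 7 rose and 6 fell, against 38.6% of all genes (18.9% higher and 19.8% lower), and among the enzymes Hsd17b7 (log2FC 1.55, adjusted p = 0.000403) and Mvd (log2FC 0.71, adjusted p = 0.0433) rose while Cyp51 (log2FC -0.80, adjusted p = 0.0413) and Dhcr7 (log2FC -0.98, adjusted p = 0.0313) fell. Without LPS-primed replicate 3, 5 members in all were called. The share of all genes called in that fit, or under library size alone, is not given here.

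Abca1 rose 3.59-fold with priming (log2FC 1.84 ± 0.46, adjusted p = 0.00609), from a group in which replicate 1, at 377, stood below the other two. Nr1h3 rose alongside it (log2FC 1.48 ± 0.28, adjusted p = 0.000729), with all 3 LPS-primed samples above all unstimulated ones. By contrast, Abcg1 fell 2.88-fold (log2FC -1.53 ± 0.18, adjusted p = 6.1e-06) and Mylip fell 2.74-fold (log2FC -1.45 ± 0.25, adjusted p = 0.000388). The LXR target genes thus moved in opposite directions within the same samples. Apoe spanned 30610 to 113700 in unstimulated and 12430 to 52940 in LPS-primed BMDMs, with replicate 2 the highest of each group (log2FC -1.33 ± 0.73, adjusted p = 0.211), and with the block it fell (log2FC -1.44, adjusted p = 1.2e-05).

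Scd2 rose with priming (log2FC 1.82 ± 0.52, adjusted p = 0.0149), though not without unstimulated replicate 1 or LPS-primed replicate 3 (adjusted p from 0.0602 to 0.0751). Scap fell (log2FC -0.73 ± 0.19, adjusted p = 0.01) in all 3 LPS-primed samples relative to every unstimulated sample, with the call lost without LPS-primed replicate 3 (adjusted p = 0.0505). Smaller rises were seen for Insig2 (log2FC 0.62 ± 0.21, adjusted p = 0.0415) and Srebf1 (log2FC 0.43 ± 0.15, adjusted p = 0.0446). The Insig2 call was lost without unstimulated replicate 1 or 2 or LPS-primed replicate 1 or 2 or 3 (adjusted p from 0.0531 to 0.167), and that of Srebf1 without unstimulated replicate 1 or 3 or LPS-primed replicate 1 or 2 (adjusted p from 0.0882 to 0.17).

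With a single dose of LPS at 10 ng/ml, synthesis enzymes were called in both directions, 9 of 18 in all, which is no higher a share than that of all genes. Relative to unstimulated BMDMs, 8 of the 33 members rose and 6 fell, against 51.2% of all tested genes called (24.3% higher and 26.9% lower), so that the members were not called more often than all genes were. Among the 18 enzymes, 6 rose and 3 fell, with a median log2FC of 0.38 against -0.09 over all genes. With an absolute log2FC above 2 as a further limit, 5 members were called, against 12% of all genes. Under library size alone, 5 members rose and 10 fell, with the median of all genes at -0.43, and the calls of Acat2, Cyp51 and Scap were lost. Without LPS-stimulated replicate 2, 9 members were called. For that fit, and for library size alone, the share of all genes called is not given here. Under the blocked fit, 11 rose and 6 fell, against 63.2% of all genes (29.5% higher and 33.8% lower), with Insig1 (log2FC 0.59, adjusted p = 0.0478), Msmo1 (log2FC 0.40, adjusted p = 0.0497) and Stard4 (log2FC 0.72, adjusted p = 0.0203) added.

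The enzymes that rose were Hsd17b7 (log2FC 2.40 ± 0.65, adjusted p = 0.0053), Idi1 (log2FC 1.70 ± 0.53, adjusted p = 0.0129), Sqle (log2FC 1.62 ± 0.23, adjusted p = 1.7e-05), Cyp51 (log2FC 1.49 ± 0.47, adjusted p = 0.0146), Hmgcs1 (log2FC 1.27 ± 0.36, adjusted p = 0.00706) and Acat2 (log2FC 1.21 ± 0.48, adjusted p = 0.0459). Sqle stood out for its narrow spread, at 1014 to 1182 after the dose against 286 to 475 before it. The Acat2 call was lost without unstimulated replicate 2 or 3 or LPS-stimulated (10 ng/ml) replicate 2 or 3 (adjusted p from 0.11 to 0.152), and 1 unstimulated sample of Acat2 overlapped the dosed range. The Cyp51 call was lost without unstimulated replicate 2 or LPS-stimulated (10 ng/ml) replicate 2 (adjusted p from 0.053 to 0.0718), that of Hmgcs1 without LPS-stimulated (10 ng/ml) replicate 2 (adjusted p = 0.0542) and that of Idi1 without LPS-stimulated (10 ng/ml) replicate 2 (adjusted p = 0.082).

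The enzymes that fell stood at other steps. Dhcr7 fell 7.06-fold (log2FC -2.82 ± 0.41, adjusted p = 2.37e-05), from 141 or more in each unstimulated sample to 34.6 or fewer. Mvk fell (log2FC -1.08 ± 0.27, adjusted p = 0.00293), with 1 unstimulated sample, at 65.4, level with the highest dosed sample. Lss also fell (log2FC -0.70 ± 0.21, adjusted p = 0.00955), and this call was lost without unstimulated replicate 1 (adjusted p = 0.0792).

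Of the regulators, Srebf2 rose 2.18-fold (log2FC 1.13 ± 0.18, adjusted p = 5.5e-05) with every dosed sample at 1902 or more. Scap rose slightly (log2FC 0.48 ± 0.19, adjusted p = 0.0446), a call that was lost whichever of the 6 samples was left out (adjusted p from 0.051 to 0.119). Of the efflux and LXR target genes, Abcg1 fell 8.41-fold (log2FC -3.07 ± 0.19, adjusted p = 1.56e-09) and Mylip fell 5.24-fold (log2FC -2.39 ± 0.26, adjusted p = 1.3e-06), each without overlap between the groups. Scd2 fell 6.59-fold (log2FC -2.72 ± 0.59, adjusted p = 0.000978), opposite in direction to its rise with priming. Abca1, Nr1h3 and Nr1h2 had log2FC values of 0.23 ± 0.44, 0.48 ± 0.27 and -0.04 ± 0.18, none past the threshold.

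The study's own contrast for tolerance set LPS-tolerant against LPS-stimulated (10 ng/ml) BMDMs. These shared the last dose and differed by the priming. They may also have differed by the change of medium, which is not stated for the single dose. Here 16 members rose and 1 fell, against 34.5% of all tested genes called, with 16.2% higher and 18.3% lower. With an absolute log2FC above 2 as a further limit, 2 members were called, against 8.04% of all genes. Of the 18 synthesis enzymes 13 rose and none fell, with a median log2FC of 1.12 against 0.00 over all genes. The largest rises among them were those of Dhcr7 (log2FC 2.16 ± 0.41, adjusted p = 0.000535), Lss (log2FC 1.86 ± 0.21, adjusted p = 3.5e-06), Mvd (log2FC 1.74 ± 0.31, adjusted p = 0.000279) and Mvk (log2FC 1.72 ± 0.27, adjusted p = 9.55e-05). Of these 4, Dhcr7, Lss and Mvk had fallen with the single dose, in a comparison that uses the same LPS-stimulated samples.

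Further enzymes that rose were Msmo1 (log2FC 1.40 ± 0.26, adjusted p = 0.000558), Sqle (log2FC 1.30 ± 0.22, adjusted p = 0.000236), Fdft1 (log2FC 1.20 ± 0.31, adjusted p = 0.00668), Fdps (log2FC 1.14 ± 0.23, adjusted p = 0.00115), Sc5d (log2FC 1.11 ± 0.30, adjusted p = 0.00723), Tm7sf2 (log2FC 0.97 ± 0.27, adjusted p = 0.00888) and Pmvk (log2FC 0.75 ± 0.20, adjusted p = 0.00657). Nsdhl (log2FC 0.83 ± 0.25, adjusted p = 0.0138) and Hsd17b7 (log2FC 1.53 ± 0.57, adjusted p = 0.0463) were also called. The Nsdhl call was lost without LPS-tolerant replicate 2 (adjusted p = 0.114), and the Hsd17b7 call without LPS-tolerant replicate 2 or 3 or LPS-stimulated (10 ng/ml) replicate 1 or 2 or 3 (adjusted p from 0.055 to 0.148). The 4 enzymes Hmgcs1, Idi1, Cyp51 and Acat2, which had risen with the single dose, did not differ past the threshold, at log2FC values of 0.54 ± 0.35, 0.74 ± 0.50, 0.79 ± 0.46 and -0.87 ± 0.48. Under the blocked fit, 22 members rose and 2 fell, against 47.6% of all genes (22.9% higher and 24.7% lower), and Hmgcs1 (log2FC 0.56, adjusted p = 0.0124), Idi1 (log2FC 0.71, adjusted p = 0.0369) and Cyp51 (log2FC 0.75, adjusted p = 0.0295) were among those that rose, as were Insig1 (log2FC 1.02, adjusted p = 0.00191) and Stard4 (log2FC 1.21, adjusted p = 0.000452).

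Scd2 rose 30.2-fold (log2FC 4.92 ± 0.62, adjusted p = 1.1e-05), with 13.1 to 45.4 normalized counts after the single dose and 422 to 1377 in LPS-tolerant BMDMs. Nr1h3 (log2FC 0.92 ± 0.27, adjusted p = 0.015) and Lpcat3 (log2FC 0.53 ± 0.15, adjusted p = 0.0104) rose by less, and their calls were lost without LPS-tolerant replicate 2 or LPS-stimulated (10 ng/ml) replicate 2 (adjusted p from 0.0785 to 0.0906) for Nr1h3 and without LPS-stimulated (10 ng/ml) replicate 3 (adjusted p = 0.054) for Lpcat3. Scap was the member that fell, 2.56-fold (log2FC -1.36 ± 0.20, adjusted p = 4.68e-05), with LPS-tolerant samples at 286 to 430.5 against 788 to 952. Abcg1 and Mylip, both low in either group, had log2FC values of -0.17 ± 0.18 and 0.41 ± 0.26. Abca1 (log2FC 0.85 ± 0.45, adjusted p = 0.156) and Apoe (log2FC -1.19 ± 0.73, adjusted p = 0.227) were not called, but with the block Abca1 rose (log2FC 1.00, adjusted p = 0.00689) and Apoe fell (log2FC -1.39, adjusted p = 1.46e-05).

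The responses to the first and second dose were then compared directly, as the difference between LPS-tolerant and LPS-primed BMDMs minus the difference between LPS-stimulated (10 ng/ml) and unstimulated BMDMs. This contrast was above 0 and called for 12 members and called below 0 for none, against 23.8% of all tested genes, with 10.5% above and 13.3% below 0. Of the 12, 3 differed by more than 2 on the log2 scale, against 8.01% of all genes called at that limit. With the replicate block, 20 members were called, 19 above 0 and 1 below it, against 36.2% of all genes (17.2% above and 19.0% below). The 12 comprised 9 synthesis enzymes, Scd2, Abcg1 and Mylip. The 20 held 15 synthesis enzymes, the same other 3 and Insig1 above 0, and Scap below 0. As background for the second dose, Tnf rose by 6.74 on the log2 scale with the first dose and by 2.92 with the second.

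**Figure D3:**
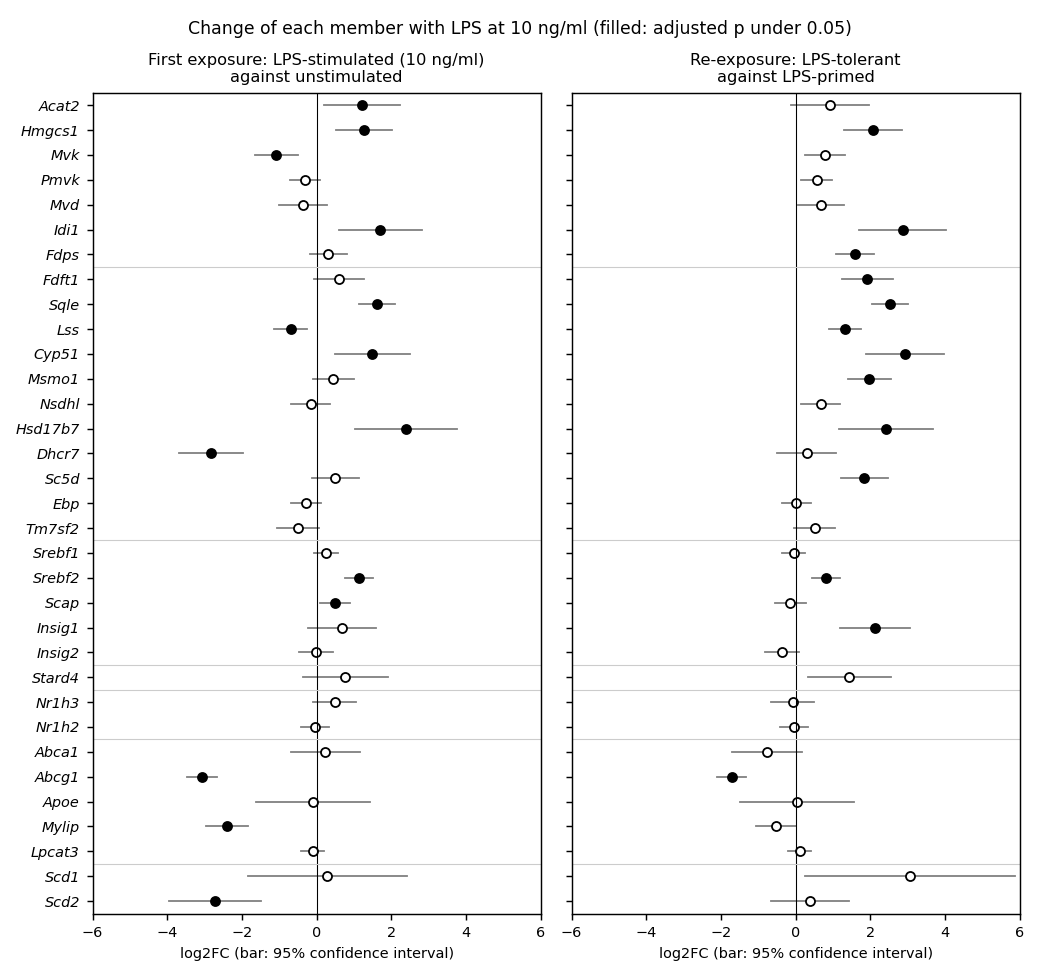
Log2FC (horizontal axes) of each member (vertical axis, grouped by role) with LPS at 10 ng/ml, at first exposure on the left and at re-exposure of LPS-primed BMDMs on the right, with bars for 95% intervals and filled points for an adjusted p under 0.05. Dhcr7, Lss and Mvk lie below 0 on the left, all 18 synthesis enzymes lie above 0 on the right, and the wide intervals of Scd1 come from few reads.

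The largest differences between the responses among the enzymes were those of Dhcr7, Lss and Mvk, for which a fall with the first dose is itself part of the difference. For Dhcr7 the responses were -2.82 ± 0.41 and 0.29 ± 0.37 (difference 3.11 ± 0.55, adjusted p = 0.000461), for Lss -0.70 ± 0.21 and 1.32 ± 0.20 (difference 2.03 ± 0.29, adjusted p = 6.51e-05) and for Mvk -1.08 ± 0.27 and 0.78 ± 0.26 (difference 1.86 ± 0.37, adjusted p = 0.00134). Msmo1 (1.52 ± 0.37, adjusted p = 0.00626) followed. Of these 4 enzymes, Lss and Msmo1 rose with the second dose.

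Smaller differences were called for Sc5d (1.34 ± 0.42, adjusted p = 0.0275), Fdft1 (1.33 ± 0.45, adjusted p = 0.0387), Fdps (1.29 ± 0.33, adjusted p = 0.00885), Sqle (0.90 ± 0.31, adjusted p = 0.0459) and Pmvk (0.87 ± 0.28, adjusted p = 0.0293), and all of these apart from Fdps depended on single samples. The Sc5d call was lost without unstimulated replicate 3 or LPS-primed replicate 1 or 2 or LPS-tolerant replicate 2 or LPS-stimulated (10 ng/ml) replicate 1 or 3 (adjusted p from 0.0538 to 0.0835). The Fdft1 call was lost without unstimulated replicate 1 or 3 or LPS-primed replicate 1 or 2 or LPS-tolerant replicate 2 or 3 or LPS-stimulated (10 ng/ml) replicate 1 (adjusted p from 0.0643 to 0.0953). The Sqle call was lost without unstimulated replicate 1 or LPS-primed replicate 1 or 2 or LPS-tolerant replicate 2 or 3 or LPS-stimulated (10 ng/ml) replicate 1 or 2 or 3 (adjusted p from 0.0625 to 0.138), and the Pmvk call without unstimulated replicate 1 or 2 or LPS-primed replicate 1 or 3 or LPS-tolerant replicate 2 or 3 or LPS-stimulated (10 ng/ml) replicate 2 or 3 (adjusted p from 0.0528 to 0.0947).

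For Abcg1 the positive difference was a smaller fall from a lower starting level, and Mylip fell with the first dose and was not called with the second. Abcg1 changed by -3.07 ± 0.19 with the first and -1.71 ± 0.18 with the second dose (difference 1.36 ± 0.25, adjusted p = 0.000764), and Mylip by -2.39 ± 0.26 and -0.52 ± 0.26 (difference 1.87 ± 0.36, adjusted p = 0.0011). Scd2 likewise fell with the first dose and was not called with the second (difference 3.10 ± 0.77, adjusted p = 0.00688). No difference past the threshold was found for Hmgcs1 (0.81 ± 0.50), Idi1 (1.16 ± 0.75), Cyp51 (1.43 ± 0.66), Srebf2 (-0.31 ± 0.25) or Abca1 (-0.99 ± 0.63). In the blocked fit, Hmgcs1 (log2FC 0.91, adjusted p = 0.00833), Idi1 (log2FC 1.24, adjusted p = 0.0297) and Cyp51 (log2FC 1.55, adjusted p = 0.00548) did pass, as did Mvd, Nsdhl, Tm7sf2, Insig1 and Scap, with adjusted p from 0.00202 to 0.0426.

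To set the 2 arms side by side, log2 CPM was averaged over the 18 synthesis enzymes and over the 5 efflux and LXR target genes in each sample. The synthesis mean was 4.14 ± 0.14 (SD, n = 3) in unstimulated, 4.40 ± 0.23 in LPS-stimulated (10 ng/ml), 4.05 ± 0.22 in LPS-primed and 5.45 ± 0.41 in LPS-tolerant BMDMs. The efflux mean, which also holds the LXR targets Mylip and Lpcat3, was 7.69 ± 0.54, 6.65 ± 0.24, 7.30 ± 0.36 and 6.74 ± 0.19 in the same order. Synthesis minus efflux therefore stood at -3.55 ± 0.67, -2.25 ± 0.03, -3.25 ± 0.30 and -1.29 ± 0.25.

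**Figure D4:**
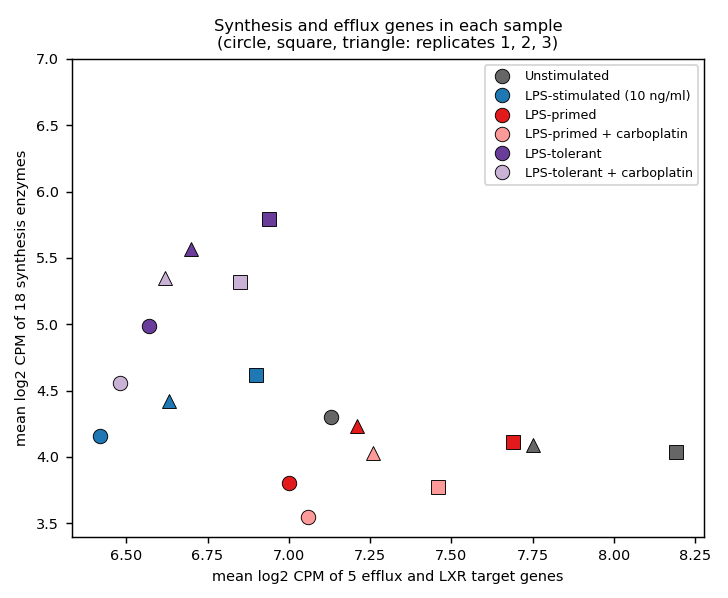
Mean log2 CPM of the 18 synthesis enzymes (vertical axis) against that of the 5 efflux and LXR target genes (horizontal axis), with 1 point per sample, coloured by group and shaped by replicate number. The 6 LPS-tolerant samples with and without carboplatin have synthesis means of 4.56 to 5.79 and efflux means of 6.48 to 6.94, whereas the unstimulated samples have synthesis means of 4.04 to 4.3 and efflux means of 7.13 to 8.19.

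Every LPS-tolerant sample had a higher synthesis minus efflux value than every sample of the unstimulated, LPS-stimulated and LPS-primed groups. From LPS-primed to LPS-tolerant BMDMs the value changed by 1.97 ± 0.42 (SD over the 3 same-numbered pairs), of which 1.41 lay in synthesis and -0.56 in efflux. With the single dose it changed by 1.30 ± 0.67, of which 0.26 lay in synthesis and -1.04 in the efflux mean. There the exporter Abcg1 and the LXR target Mylip fell. Abca1, Apoe and Lpcat3, at log2FC values of 0.23, -0.10 and -0.11, were not called. Priming moved synthesis minus efflux by 0.30 ± 0.58, less than the spread over the pairs, and by -0.01 without unstimulated replicate 2. With the median over members in place of the mean, the change from LPS-primed to LPS-tolerant BMDMs was 0.63, and these summaries over chosen genes carry no test.

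No member passed the test with carboplatin. In LPS-primed BMDMs, 0 of 33 members were called by edgeR's quasi-likelihood test, against 0.372% of all tested genes called. At an unadjusted p under 0.05 there were 0 members and 776 of the 11305 tested genes. In LPS-tolerant BMDMs, 0 members were called, against 0.425% of all genes. At an unadjusted p under 0.05 there were 3 members and 761 of all tested genes. With the replicate block, 0 members were called in either, against 1.77% of all genes in each. There, 2 and 8 members had an unadjusted p under 0.05, and the number of all genes at that limit is not given here. DESeq2 and limma-voom likewise called 0 members. The study's threshold for carboplatin was an adjusted p under 0.25, at which the fit without the block also called 0 members. The smallest adjusted p of a member with the block was 0.333 in LPS-primed and 0.114 (Abcg1, log2FC 0.49) in LPS-tolerant BMDMs. With the block, 0 members were under that threshold in LPS-primed and 3 in LPS-tolerant BMDMs. The 3 were Abcg1, an SREBP factor or regulator (adjusted p = 0.226) and a squalene or sterol enzyme (adjusted p = 0.23). The difference between the 2 carboplatin effects was also called for 0 members, against 0.0% of all tested genes. Without the block, 0 members and 131 of all tested genes had an unadjusted p under 0.05 for this difference.

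**Figure D5:**
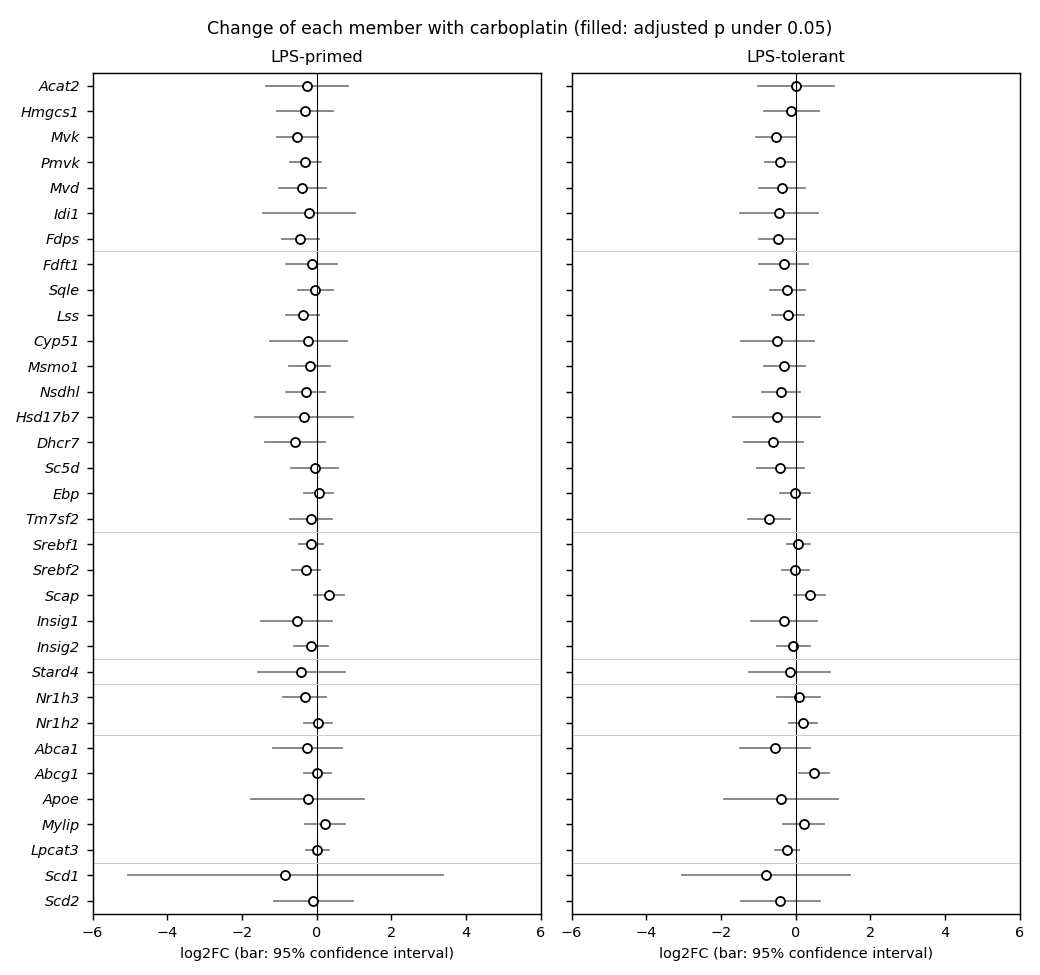
Log2FC with carboplatin (horizontal axes) of each member (vertical axis, grouped by role) in LPS-primed (left) and LPS-tolerant (right) BMDMs, with bars for 95% intervals and open points for values that did not pass the test. The synthesis enzymes lie below 0 in 17 of 18 cases on the left and in 18 of 18 on the right, and the intervals of Pmvk, Tm7sf2 and Abcg1 on the right leave out 0.

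Values of the synthesis enzymes were nevertheless mostly on the lower side. In LPS-primed BMDMs, 17 of 18 had a log2FC below 0, with a median of -0.27 and a smallest adjusted p of 0.769, or 0.388 with the block. In LPS-tolerant BMDMs, 18 of 18 were below 0, with a median of -0.40 and a smallest adjusted p of 0.475, or 0.23 with the block. Genes of 1 pathway share their control and their samples and are not independent readings. The synthesis mean was 3.78 ± 0.24 in carboplatin-treated LPS-primed and 5.08 ± 0.45 in carboplatin-treated LPS-tolerant BMDMs (SD, n = 3), and its samples overlapped those of the matching group without the drug in both settings. Between same-numbered samples it was lower with the drug in all 6 pairs, by a difference of -0.47 to -0.2.

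Among the mevalonate enzymes, counts of Hmgcs1 with the drug were 229.6, 368 and 389 in LPS-primed and 944, 2016 and 1780 in LPS-tolerant BMDMs, against 255, 452 and 517 and 1083, 2207 and 1870 without it. Treated samples of Mvk had 62.1, 68.6 and 70.4 in LPS-primed and 102, 105 and 137 in LPS-tolerant BMDMs. They lay below every sample of the matching group without the drug, at log2FC values of -0.52 ± 0.26 and -0.53 ± 0.26. For Fdps, treated counts were 262, 268 and 311 in LPS-primed and 604, 846 and 1023 in LPS-tolerant BMDMs. These lay below all untreated samples in LPS-primed BMDMs (log2FC -0.44 ± 0.24, adjusted p = 0.801) and overlapped them in LPS-tolerant BMDMs (log2FC -0.48 ± 0.23, adjusted p = 0.754).

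Idi1 counts with the drug were 13.5, 34.8 and 32.2 in LPS-primed and 66.9, 257 and 179 in LPS-tolerant BMDMs. Mvd counts were 192, 136 and 267 in LPS-primed and 226, 359.7 and 370.3 in LPS-tolerant BMDMs. Those of Acat2 were 35.1, 40.4 and 59.4 in LPS-primed and 31.5, 149 and 124 in LPS-tolerant BMDMs. Each of these 3 enzymes overlapped the group without carboplatin in both settings.

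In the squalene and sterol steps, treated Sqle counts were 424, 425 and 520.3 in LPS-primed and 1720, 2655 and 2605 in LPS-tolerant BMDMs, with log2FC values of -0.04 ± 0.22 and -0.22 ± 0.22. Cyp51 counts were 86.4, 151 and 220.4 in LPS-primed and 413, 1324 and 1186 in LPS-tolerant BMDMs, and in each same-numbered pair the treated sample was the lower one. Treated counts of Lss were 78.3, 90.2 and 99.6 in LPS-primed and 218, 258 and 273 in LPS-tolerant BMDMs. All treated LPS-primed samples of Lss lay below the untreated ones (log2FC -0.37 ± 0.21, adjusted p = 0.835). Fdft1 counts were 254, 173 and 265 in LPS-primed and 589, 749 and 952 in LPS-tolerant BMDMs. Those of Msmo1 were 421, 439 and 510.2 in LPS-primed and 1011, 2074 and 1843 in LPS-tolerant BMDMs. The ranges with and without the drug overlapped for Fdft1 and Msmo1 in both settings.

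Treated counts of Sc5d were 166, 199 and 271 in LPS-primed and 367, 771 and 643 in LPS-tolerant BMDMs. Hsd17b7 counts were 8.10, 34.8 and 55.4 in LPS-primed and 72.1, 167 and 235 in LPS-tolerant BMDMs. Both genes overlapped their untreated groups, and for Hsd17b7 replicate 1 was again the lowest. Dhcr7 counts were 60.8, 38.5 and 58.4 in LPS-primed and 52.5, 61.5 and 75.3 in LPS-tolerant BMDMs. Its log2FC values of -0.58 ± 0.38 and -0.60 ± 0.38 had 95% intervals of -1.39 to 0.23 and -1.39 to 0.20. The smallest adjusted p of an enzyme in LPS-tolerant BMDMs was that of Tm7sf2, a sterol reductase, at 64.6 to 79.3 without and 39.8 to 50.5 with the drug (log2FC -0.72 ± 0.26, adjusted p = 0.475). Its treated and untreated samples did not overlap.

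Of the SREBP regulators, Insig1 had treated counts of 41.9, 137 and 77.5 in LPS-primed and 268, 502 and 540.3 in LPS-tolerant BMDMs. Srebf2 counts were 802, 1084 and 1171 in LPS-primed and 1895, 2165 and 2448 in LPS-tolerant BMDMs. Scap counts were 593, 353 and 459 in LPS-primed and 511, 385 and 407 in LPS-tolerant BMDMs. Scap was on the higher side in both settings (0.33 ± 0.19 and 0.37 ± 0.20) without a call, while Insig1 and Srebf2 overlapped their untreated groups. For Srebf1 the treated counts were 912, 798 and 865 in LPS-primed and 947, 935 and 1012 in LPS-tolerant BMDMs. Those of Insig2 were 162, 150.4 and 207 in LPS-primed and 101, 158 and 171 in LPS-tolerant BMDMs. Their log2FC values lay between -0.15 and 0.07.

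Neither receptor gene passed the test with the drug. Nr1h3 counts with the drug were 549.7, 632 and 414 in LPS-primed and 590, 756 and 647 in LPS-tolerant BMDMs. Nr1h2 counts were 1157, 863 and 1014 in LPS-primed and 1301, 1005 and 970.3 in LPS-tolerant BMDMs. The 95% interval of the Nr1h2 log2FC was -0.35 to 0.42 in LPS-primed and -0.19 to 0.57 in LPS-tolerant BMDMs, so that a change of this gene by 1 on the log2 scale lay outside both.

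On the efflux side, treated Abca1 counts were 3078, 4103 and 4555 in LPS-primed and 1335, 2051 and 2169 in LPS-tolerant BMDMs. The treated LPS-tolerant samples lay below the 3 untreated ones without a call (log2FC -0.56 ± 0.44, adjusted p = 1.0). Abcg1 counts were 548, 437 and 503 in LPS-primed and 239, 171 and 220.5 in LPS-tolerant BMDMs, with a log2FC of 0.02 ± 0.18 in LPS-primed and 0.49 ± 0.18 in LPS-tolerant BMDMs (adjusted p = 0.497). Abca1 and Abcg1 thus stood on opposite sides of 0 in LPS-tolerant BMDMs. Mylip counts were 209, 257 and 246 in LPS-primed and 153, 184 and 155 in LPS-tolerant BMDMs. Those of the desaturase Scd2 were 434, 621 and 1018 in LPS-primed and 289.8, 756 and 1096 in LPS-tolerant BMDMs. Treated and untreated samples overlapped for both genes in LPS-primed BMDMs and for Scd2 in LPS-tolerant BMDMs. The treated LPS-tolerant samples of Mylip lay above the untreated ones by a narrow margin, with a log2FC of 0.22 ± 0.26 and no call.

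Lists of neighbouring pathways gave a setting for these values. Of 15 genes of fatty acid synthesis, 3 rose and none fell from LPS-primed to LPS-tolerant BMDMs, against 6.31% of all tested genes, among them Fasn, the fatty acid synthase, by 1.89 on the log2 scale (adjusted p = 0.00199). Of 13 genes of the isoprenoid branches, which draw on farnesyl diphosphate for other products, 1 rose and none fell. Of 16 genes of sterol uptake and trafficking, 1 rose and none fell in the same comparison. The blocked fit gave 5 higher and 1 lower for fatty acid synthesis, 2 higher for the isoprenoid branches, and 1 higher and 1 lower for uptake and trafficking, against 18% of all genes. With the single dose, 3 of the 16 genes of uptake and trafficking rose and 9 fell, against 51.2% of all genes, with Msr1, a scavenger receptor for modified lipoproteins, higher by 3.38 on the log2 scale (adjusted p = 9.98e-09).

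Exons of 18 members overlap exons of another gene in GENCODE on GRCm39, for example Fdft1 with Ctsb, Sqle with Washc5, Cyp51 with Akap9 and Acat2 with Tcp1 on the opposite strand, and Tm7sf2 with Vps51 on the same strand. The strand option of the counting is not stated in the sources used here, and the part of such read pairs in these values was not tested.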

How the data were processed

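RNA-Seq libraries of 18 BMDM samples were sequenced as read pairs. The authors used HISAT2 for alignment to GRCm39 and HTSeq for counting per gene symbol, and the deposited values are raw counts without normalization, per the labels and the methods. Versions, annotation and the strand option are not given in the sources used here. Of the read pairs of a sample, 41.5% to 46.9% were not counted on a gene, and the 5 summary lines that hold them were left out. Depth was 6869667 to 14708099 counted read pairs. Counting error is large for the members with few counts, such as Scd1 and Hsd17b7.

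The members were named from the sterol pathway, and they and the neighbouring lists were chosen with earlier results of these data known. All 18 samples entered 1 fit of edgeR 4.0.16 in R 4.3.3 (TMM, filterByExpr with a minimum count of 10 and a minimum total of 15, quasi-likelihood F test, a mean for each group, prior count 0.125), with Benjamini-Hochberg adjustment over 11305 genes and calls at an adjusted p under 0.05. The error of a log2FC is an SE, the absolute log2FC over the square root of F. Log2 CPM used a prior count of 2, and fits were tested on simulated data. Named with a value in every sample were members called in a comparison of LPS groups and the central regulators and receptors, and other members by range.

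One item of the marker lists is not reported here. Replicate numbers come from the labels. After group means were removed, same-numbered samples of compared groups correlated at 0.183 to 0.574, and over all groups at 0.349 on average against -0.17 for samples of other numbers, so the numbers were taken to pair the samples. A blocked fit, with this number as a factor, is given where it changed a call of a member or a count of calls by more than 1.5 times. Counts of no 2 replicates agreed within sampling noise.

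Alternatives were other size factors, library size alone, no filter, at least 10 counts in every sample, the compared groups alone, the block, DESeq2 1.42.0, limma-voom (limma 3.58.1), the study's limits (an absolute log2FC above 2), and leaving out each sample. The study's limits took an adjusted p under 0.05, or under 0.25 for carboplatin. Leaving out all samples of a replicate number was added after the data were seen. Promoters came from RefSeq (GRCm38.p6), with 26 of 33 members matched, and gene models from GENCODE on GRCm39.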

Additional observations from a re-analysis of the deposited data

Results flagged for a closer look

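For 12 members of the 33 the response to the second LPS dose differed from that to the first (edgeR's quasi-likelihood test of the difference, adjusted p under 0.05), all with a difference above 0 on the log2 scale. Of all tested genes, 23.8% were called, with 10.5% above and 13.3% below 0. Among the enzymes the differences were 3.11 for Dhcr7, 2.03 for Lss, 1.86 for Mvk, 1.52 for Msmo1, 1.34 for Sc5d, 1.33 for Fdft1, 1.29 for Fdps, 0.90 for Sqle and 0.87 for Pmvk. They were 3.10 for Scd2, 1.87 for Mylip and 1.36 for Abcg1. With the replicate block all 12 kept their call, at 3.13 for Dhcr7 and 0.88 for Pmvk as the largest and smallest of the enzymes. The second dose was given in fresh medium, and its part in these differences cannot be told apart from that of the dose.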

How the results depend on the processing

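Of 64 results for single members, 511 values under other settings kept their direction, 492 of them on the same side of the threshold and 19 no longer past it. With 1 sample, or all samples of 1 replicate number, left out, 500 of 648 values stayed on the same side. The other 148 were no longer past the threshold, with none reversed. With the replicate block, no member lost its call, and the number of members called went from 8 to 13 for LPS-primed against unstimulated BMDMs and from 12 to 20 for the second minus the first response. It changed no other count over all members by more than 1.5 times, and changes in lists are given beside them.

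At the study's limits, 0 members were called for priming, 5 for the single dose, 2 for LPS-tolerant against LPS-stimulated, 6 for LPS-tolerant against LPS-primed BMDMs and 3 for the difference of the responses. Leaving out 1 sample, or all samples of 1 replicate number, gave 3 to 10 calls for priming, 6 to 20 for the single dose, 9 to 22 for LPS-tolerant against LPS-stimulated, 2 to 16 for LPS-tolerant against LPS-primed BMDMs and 3 to 17 for the difference of the responses. The lowest count was without replicate 2 for the single dose and without replicate 3 for the other 4, whereas without replicate 1, with as few samples, the counts were the highest, at 10, 20, 22, 16 and 17, and the cause was not tested. The share of all genes called in these fits, or under library size alone, DESeq2 or limma-voom, is not given here. Member counts from them cannot be read as particular to the members. No member was called for carboplatin under any of these settings. With the block, 3 members had an adjusted p under 0.25 by edgeR's quasi-likelihood test in LPS-tolerant BMDMs.

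The change in synthesis minus efflux between LPS-tolerant and LPS-stimulated BMDMs, 0.96 as a mean over all genes of each arm, was 1.23 with the efflux group held to 3 genes and 0.26 as a median over members, and that between LPS-tolerant and LPS-primed BMDMs, 1.97 as a mean, was 0.63 as a median. For carboplatin in LPS-primed BMDMs it was -0.23 as a mean, -0.12 with 3 efflux genes and -0.39 to -0.09 with 1 sample left out. In LPS-tolerant BMDMs it was -0.29 as a mean, on the other side of 0 at 0.03 as a median, and -0.44 to -0.12 with 1 sample left out. The cause of these shifts was not tested. Depth limits Scd1, which had too few reads for a fold change.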

Other observations

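Further genes of the LXR system, named for the size of their values after these were seen, moved with LPS. Ch25h, which makes the oxysterol 25-hydroxycholesterol, had normalized counts of 20.1, 3.28 and 8.18 in unstimulated BMDMs and 3840, 1443 and 1273 after the single dose (log2FC 7.72 ± 0.79, adjusted p = 5.26e-07). Its counts were 114, 81.2 and 105 in LPS-tolerant BMDMs (log2FC -4.45 ± 0.64 against the single dose, adjusted p = 4.31e-05). Cyp27a1, which makes another oxysterol, averaged 718 ± 192 in unstimulated (SD, n = 3), 152 ± 30.5 in LPS-stimulated (10 ng/ml), 147 ± 23 in LPS-primed and 47 ± 11.6 in LPS-tolerant BMDMs, and fell from LPS-primed to LPS-tolerant BMDMs (log2FC -1.63 ± 0.29, adjusted p = 0.003). Of the 9 tested genes of this list, 1 rose and 2 fell with the single dose, against 51.2% of all tested genes called. None rose and 4 fell with priming, against 25.2%, and 2 rose and 5 fell with the replicate block, against 38.6%. From LPS-stimulated to LPS-tolerant BMDMs 1 rose and 5 fell, against 34.5%. From LPS-primed to LPS-tolerant BMDMs none rose and 1 fell, against 6.31%, and 1 rose and 3 fell with the block, against 18%.

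Of 7 tested LXR partners and corepressors, 1 rose and 5 fell with the single dose, against 51.2% of all genes called, and none rose and 2 fell with priming, a share near the 25.2% of all genes. Rxra, the partner with which LXR binds DNA, averaged 99.3 ± 55.6 in unstimulated and 17.6 ± 6.38 in LPS-stimulated (10 ng/ml) BMDMs (log2FC -2.45 ± 0.42, adjusted p = 0.000116), against 119 ± 11.7 in LPS-tolerant BMDMs. Pparg, a lipid-sensing receptor, averaged 405 ± 60.3 in unstimulated and 7.46 ± 4.44 in LPS-primed BMDMs (log2FC -5.76 ± 0.48, adjusted p = 1.44e-07).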
